A study of Mus musculus with 2 samples.

Results

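The 5 genes described here encode nuclear receptors for steroid hormones: Pgr (progesterone receptor), Esr1 and Esr2 (oestrogen receptors alpha and beta), Nr3c1 (glucocorticoid receptor) and Nr3c2 (mineralocorticoid receptor). They were taken by gene symbol, and all 5 were found among the 22740 genes of the table. The samples are whole uteri of 2 C57BL/6 mice on day 4 of pregnancy, titled WT, with 1 RNA sequencing library from each animal. There is 1 group, no treatment is named, and the labels give no age. Uterus 1 is the animal titled WT1 and uterus 2 the animal titled WT2. Levels are the authors' RPKM, read numbers divided by transcript length and by library size, so levels of different genes can be set side by side. The values were scaled to totals of 3834174 reads (uterus 1) and 4256101 reads (uterus 2), recovered from the values themselves.

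Steroid receptors sit in the cytoplasm or nucleus, bind their hormone and then act on DNA as transcription factors. Each carries a DNA-binding domain built of a pair of zinc fingers and a ligand-binding domain. In the mouse uterus, progesterone acting through Pgr and oestrogen acting through Esr1 prepare the lining for the embryo, and implantation fails without either receptor. Glucocorticoid and mineralocorticoid receptors respond to adrenal steroids, and Nr3c2 binds glucocorticoids as well as aldosterone.

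The most conserved part of the family is the DNA-binding domain. The coding bases that begin at the opening cysteine of the domain are shown for the oestrogen receptors, which bind the same hormone and were the highest and the lowest of the family in deposited RPKM, from the GENCODE M1 transcripts on NCBIM37. Capitals mark the longest run of identical bases shared by their coding sequences.
Esr1: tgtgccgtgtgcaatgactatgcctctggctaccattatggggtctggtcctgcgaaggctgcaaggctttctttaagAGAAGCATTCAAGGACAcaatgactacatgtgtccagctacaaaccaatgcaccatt
Esr2: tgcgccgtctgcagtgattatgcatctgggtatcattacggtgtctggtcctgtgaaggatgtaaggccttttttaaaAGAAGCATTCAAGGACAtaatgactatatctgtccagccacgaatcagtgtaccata

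In Esr1 the stretch runs over exon 3 (chromosome 10, 5599734 to 5599824, minus strand) and exon 4 (5562641 to 5562684). In Esr2 it runs over exon 3 (chromosome 12, 77266436 to 77266526, minus strand) and exon 4 (77259662 to 77259705). The exon border fell after base 91 of the stretch in both genes, leaving 44 bases in the next exon.

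Over the whole stretch, Esr1 and Esr2 shared 82.2% of bases, and Pgr and Nr3c1 77.8%. Each pair of an oestrogen receptor with Pgr or Nr3c1 shared between 61.5% and 63.7%. The longest identical run was 17 bases, both between the coding sequences of Esr1 and Esr2 and between those of Pgr and Nr3c1. In pairs of an oestrogen receptor with Pgr or Nr3c1 it was 10 to 12 bases. Nr3c2 was left out of these comparisons, so they do not cover the whole family. The read length is not given in the sources used here.

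In the deposited RPKM Esr1 stood highest of the 5, followed by Pgr, an order that turned in recovered reads (mean log2 ratio of Esr1 over Pgr -0.15) and with the longest transcript lengths (-0.031). Next came the glucocorticoid receptor, while the mineralocorticoid receptor was low and oestrogen receptor beta was close to the limit of detection. At a threshold of 1 RPKM in both uteri 4 of the 5 were detected, Esr2 being the exception, against 58.4% of all genes. The tissue check showed the uterine markers Hoxa10, Hoxa11 and Hoxd10 at 53.5 to 114 RPKM, and the listed markers of epithelium, stroma, smooth muscle, endothelium and leukocytes each at a mean of 8.52 RPKM or higher. The oviduct marker Ovgp1 was also present, at 5.78 and 9.31 RPKM, and Foxj1, of ciliated cells, was listed at 0. In a whole organ, fewer cells of a type and less RNA per cell cannot be told apart.

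Esr1, the main oestrogen receptor of the uterus, had levels of 106.9 RPKM (uterus 1) and 99.2 RPKM (uterus 2), giving 103 ± 5.46 RPKM (mean ± SD, n = 2). These values rest on 1771 and 1824 reads, and counting error alone (exact 95% Poisson intervals) spans 102 to 112 RPKM and 94.7 to 104 RPKM. Uterus 2 was slightly lower, and the intervals of the uteri overlap. The interval of the ratio of uterus 2 to uterus 1 (0.869 to 0.991, counting error alone) lay below 1. The gene (NM_007956) spans 391716 bases of chromosome 10, from 5342780 to 5734495 on the minus strand.

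Pgr, whose own transcription is induced by oestrogen in the uterus, had levels of 77.5 RPKM (uterus 1) and 66.4 RPKM (uterus 2), giving 72.0 ± 7.90 RPKM. It held 2048 and 1946 reads, and the intervals of 74.2 to 81.0 RPKM and 63.5 to 69.4 RPKM do not overlap. Uterus 1 was therefore above uterus 2 by more than counting error. The gene (NM_008829) lies on chromosome 9, 8899833 to 8968611, plus strand.

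Nr3c1, the receptor of corticosterone, lay at 20.1 and 20.5 RPKM (20.3 ± 0.244) on 488 and 551 reads. Of the 5 receptors it differed least between the uteri relative to its level. It is annotated on chromosome 18 (NM_008173, 39570199 to 39646899, minus strand).

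Nr3c2, which controls salt transport in the kidney and colon, had levels of 3.06 RPKM (48 reads, uterus 1) and 1.72 RPKM (30 reads, uterus 2), giving 2.39 ± 0.946 RPKM. Its intervals, 2.26 to 4.06 RPKM and 1.16 to 2.46 RPKM, overlap, and the uterus 1 value was the higher. The interval of the ratio of uterus 2 to uterus 1 (0.344 to 0.907, counting error alone) lay below 1. The gene (NM_001083906) lies on chromosome 8, 79426407 to 79767538, plus strand.

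Esr2, the oestrogen receptor best known from the granulosa cells of the ovary, had levels of 0.388 RPKM (5 reads, uterus 1) and 0.140 RPKM (2 reads, uterus 2), giving 0.264 ± 0.175 RPKM. The intervals of 0.126 to 0.905 RPKM and 0.0169 to 0.505 RPKM overlap, so no difference between the uteri was detectable at this depth. For scale, a count of 0 would allow up to 3 reads, which is 0.233 RPKM for uterus 1 and 0.210 RPKM for the other. The gene (NM_207707) lies on chromosome 12, 77221406 to 77278246, minus strand. No gene of the table overlaps the span of any of the 5 receptors on either strand.

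**Figure D1:**
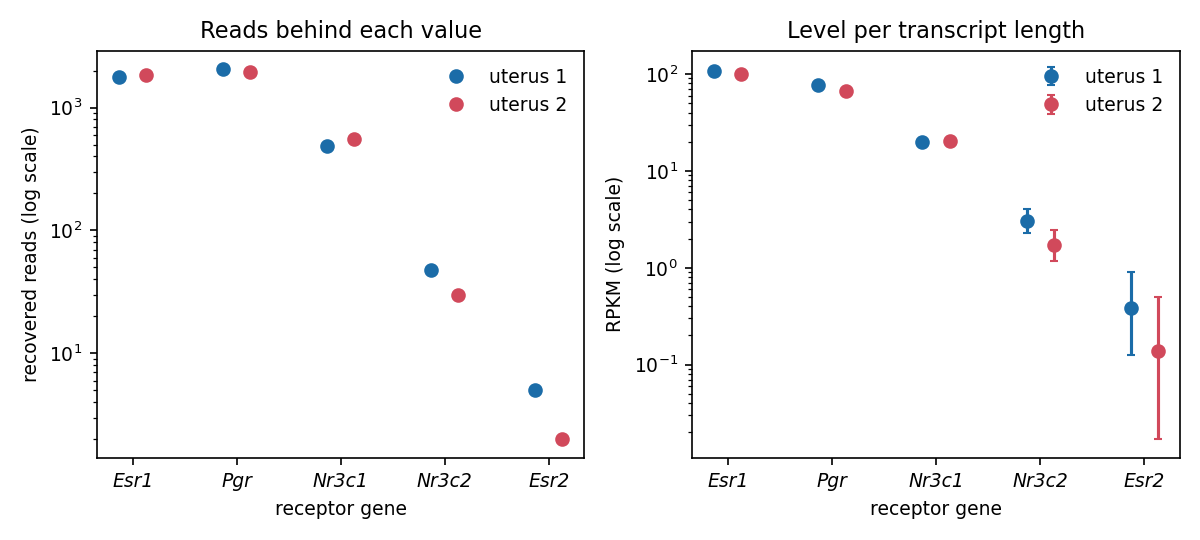
Recovered reads (left, log scale) and RPKM (right, log scale) of the 5 receptor genes in uterus 1 (blue) and uterus 2 (red), ordered by mean RPKM, with exact 95% Poisson intervals of the reads as bars on the right. Pgr holds the most reads in each uterus but lies below Esr1 in RPKM, and Esr2 rests on 5 and 2 reads.

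Because Esr2 is known from the ovary, ovarian markers are given beside it. Of 9 ovary markers, 2 reached 1 RPKM in both uteri (Star at 2.93 and 3.87 RPKM, Inha at 1.78 and 2.73 RPKM). The 9 summed to 6.66 RPKM (uterus 1) and 7.83 RPKM (uterus 2). The aromatase gene Cyp19a1, the gonadotropin receptor genes Fshr and Lhcgr, and the oocyte gene Zp3 were listed at 0 in both. Star and Inha were higher in uterus 2. Cyp11a1 (0.441 and 0.132 RPKM, 3 and 1 reads) and Gdf9 (0.723 and 0.391 RPKM, 5 and 3 reads) were lower there. Amh held 5 reads in each uterus, and its RPKM (0.783 and 0.706) differed only through the scaling totals. These reads are too few to show a direction shared with Esr2. The part of the ovary markers in the Esr2 value was not tested.

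The receptors together summed to 208 RPKM (uterus 1) and 188 RPKM (uterus 2), which is 0.0493% and 0.0444% of the summed RPKM of all genes. Within that sum Esr1 took 52.1% ± 0.988 (SD, n = 2), Pgr 36.3% ± 1.38, Nr3c1 10.3% ± 0.862, Nr3c2 1.20% ± 0.392 and Esr2 0.130% ± 0.0792. Esr1 and Pgr thus held most of the receptor RNA per length in each uterus. In recovered reads the leading pair changed places, with Pgr at 45.8% ± 1.60 and Esr1 at 41.3% ± 0.907.

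All 10 pairs of receptors were compared within each uterus. An order was called larger than the spread where the log2 ratio had 1 sign in both uteri and its mean exceeded 2 SD. An exact sign permutation over 2 uteri cannot give a two-sided p below 0.5, so no p is given. All 10 pairs met this rule on the deposited RPKM, including the 4 pairs of neighbours in the order.

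Esr1 exceeded Pgr 1.38-fold in uterus 1 (exact 95% binomial interval 1.29 to 1.47) and 1.50-fold in uterus 2 (1.40 to 1.59). This is a mean log2 ratio of 0.52 ± 0.08 (SD, n = 2). Pgr exceeded Nr3c1 3.86-fold (3.49 to 4.26) and 3.24-fold (2.95 to 3.57). The intervals for Esr1 over Pgr overlap between the uteri, and so do those for Pgr over Nr3c1.

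Nr3c1 exceeded Nr3c2 6.57-fold in uterus 1 (4.87 to 9.03) and 11.9-fold in uterus 2 (8.21 to 17.7), a mean log2 ratio of 3.14 ± 0.60. The interval for Nr3c2 over Esr2 was wide, 7.90-fold (3.16 to 25.4) in uterus 1 and 12.3-fold (3.13 to 107) in uterus 2. Of the oestrogen receptors, Esr1 exceeded Esr2 276-fold in uterus 1 (118 to 850) and 710-fold in uterus 2 (196 to 5866). The few reads of Esr2 set the width of that interval, and the fold is lower with the longer Esr1 length described next.

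The order of Esr1 and Pgr turned on the transcript length used. The deposited RPKM fits a length of 4319 bases for Esr1 and 6889 bases for Pgr, the only annotated lengths that gave whole reads. GENCODE M1 also holds an Esr1 transcript of 6339 bases, and its longest Pgr transcript is 3068 bases. With the longest length known for each gene and the reads unchanged, Esr1 lay at 72.9 and 67.6 RPKM and Pgr at 77.5 and 66.4 RPKM. On that scale Pgr was higher in uterus 1 and Esr1 in uterus 2, a mean log2 ratio of Esr1 over Pgr of -0.031. In plain reads Pgr was higher in both, with a mean log2 ratio of Esr1 over Pgr of -0.15. No other pair changed its order under any length or unit tried.

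**Figure D2:**
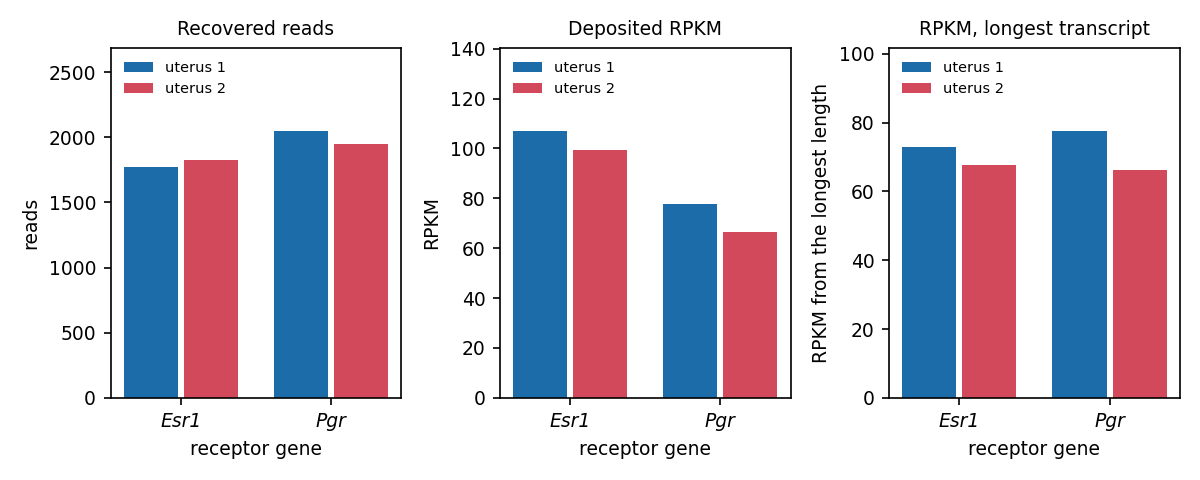
Esr1 and Pgr in uterus 1 (blue) and uterus 2 (red) as recovered reads (left), deposited RPKM (middle) and RPKM from the longest known transcript length (right), each bar 1 library and each axis from 0. Esr1 is above Pgr only in the deposited RPKM of both uteri, and on the right the order differs between the uteri.

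Among all 22740 genes Esr1 ranked 451st by mean deposited RPKM, above 98.0% of genes, and Pgr ranked 726th, above 96.8%. With the longest lengths Esr1 would lie below Pgr, at means of 70.2 and 72.0 RPKM, so the order of these ranks depends on the length. Nr3c1 ranked 3796th, above 83.3% of genes, while the median gene lay at 3.23 RPKM. Nr3c2 ranked 12072nd and Esr2 15496th, above 46.9% and 31.9% of genes. Nr3c2 and Esr2 thus stood below the median gene and the other receptors above it.

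The ranks of the highest 3 moved little between the uteri. Esr1 ranked 431st in uterus 1 and 482nd in uterus 2, Pgr 668th and 823rd, and Nr3c1 3824th and 3765th. Nr3c2 ranked 11538th and 12702nd, and Esr2 15002nd and 16177th. Among the 20445 genes with a protein-coding (NM_) identifier the mean ranks were 424 for Esr1, 686 for Pgr, 3691 for Nr3c1, 11568 for Nr3c2 and 14392 for Esr2.

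**Figure D3:**
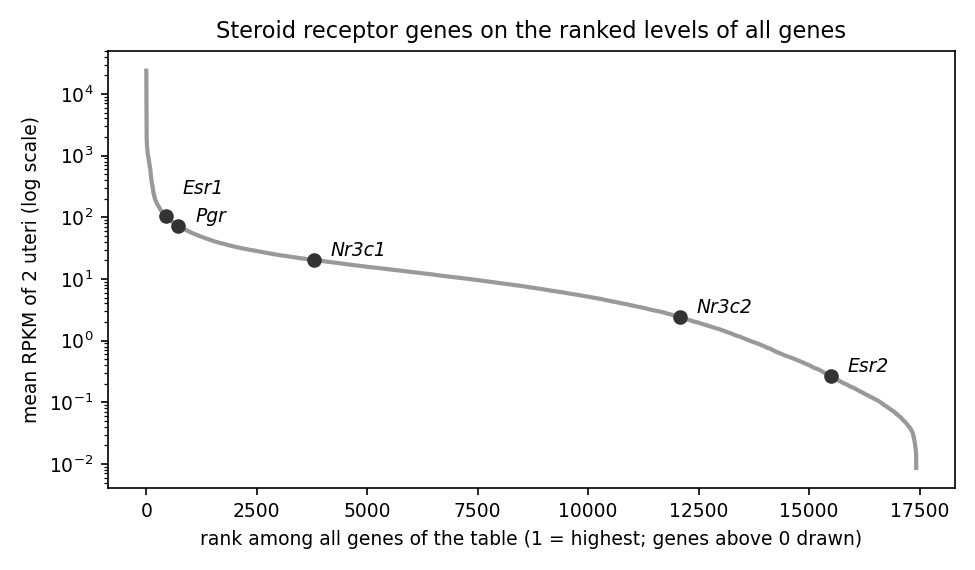
Mean deposited RPKM of the 2 uteri (log scale) against rank for all genes above 0 (grey line), with the 5 receptors as points. Esr1 at rank 451 and Pgr at rank 726 lie on the steep upper part, in an order that turns with the longest lengths (70.2 and 72.0 RPKM), Nr3c1 at 3796 on the plateau, and Nr3c2 at 12072 and Esr2 at 15496 on the lower slope.

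The receptors were also ranked in a list of 48 nuclear receptors, the wider superfamily of ligand-regulated and orphan transcription factors. Esr1 and Pgr ranked 1 and 2 in each uterus by the deposited RPKM, an order between them that depends on the transcript length. Below them stood Nr2f2 (COUP-TFII), a stromal factor downstream of progesterone and hedgehog signalling, at 60.0 and 55.6 RPKM. After it came the thyroid hormone receptor gene Thra at 28.0 and 30.7 RPKM. Nr2f2 stayed below Pgr in both uteri, and nothing else on the list exceeded 31 RPKM.

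Nr3c1 ranked 7 in both uteri. The genes nearest to it in mean log2 RPKM over the 2 libraries were the retinoic acid receptor gene Rarg (15.4 and 17.6 RPKM), the liver X receptor gene Nr1h2 (24.6 and 25.6 RPKM) and Nr2f6 (25.3 and 26.6 RPKM). Nr3c2 ranked 21 in uterus 1 and 27 in uterus 2, and lay nearest to Thrb (2.86 and 2.04 RPKM), Nr2f1 (1.93 and 2.42 RPKM) and Nr6a1 (2.77 and 2.87 RPKM). Esr2 ranked 36 and 41, nearest to Nr0b1 (0.145 and 0.524 RPKM), Nr1i2 and Nr4a3. With 2 libraries this likeness is one of level, and no pattern can be drawn from it.

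The oestrogen-related receptors, the closest relatives outside the steroid receptors, bind no oestrogen. Esrra, which controls mitochondrial genes, lay at 12.6 and 11.3 RPKM, below Nr3c1 and above Nr3c2 in both uteri. Esrrb and Esrrg had means of 0.0536 and 0.131 RPKM. Of the 48 nuclear receptors 29 reached 1 RPKM in both uteri, near the 58.4% of all genes that did, and their median was 2.45 ± 0.312 RPKM, against 3.23 RPKM for all genes.

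**Figure D4:**
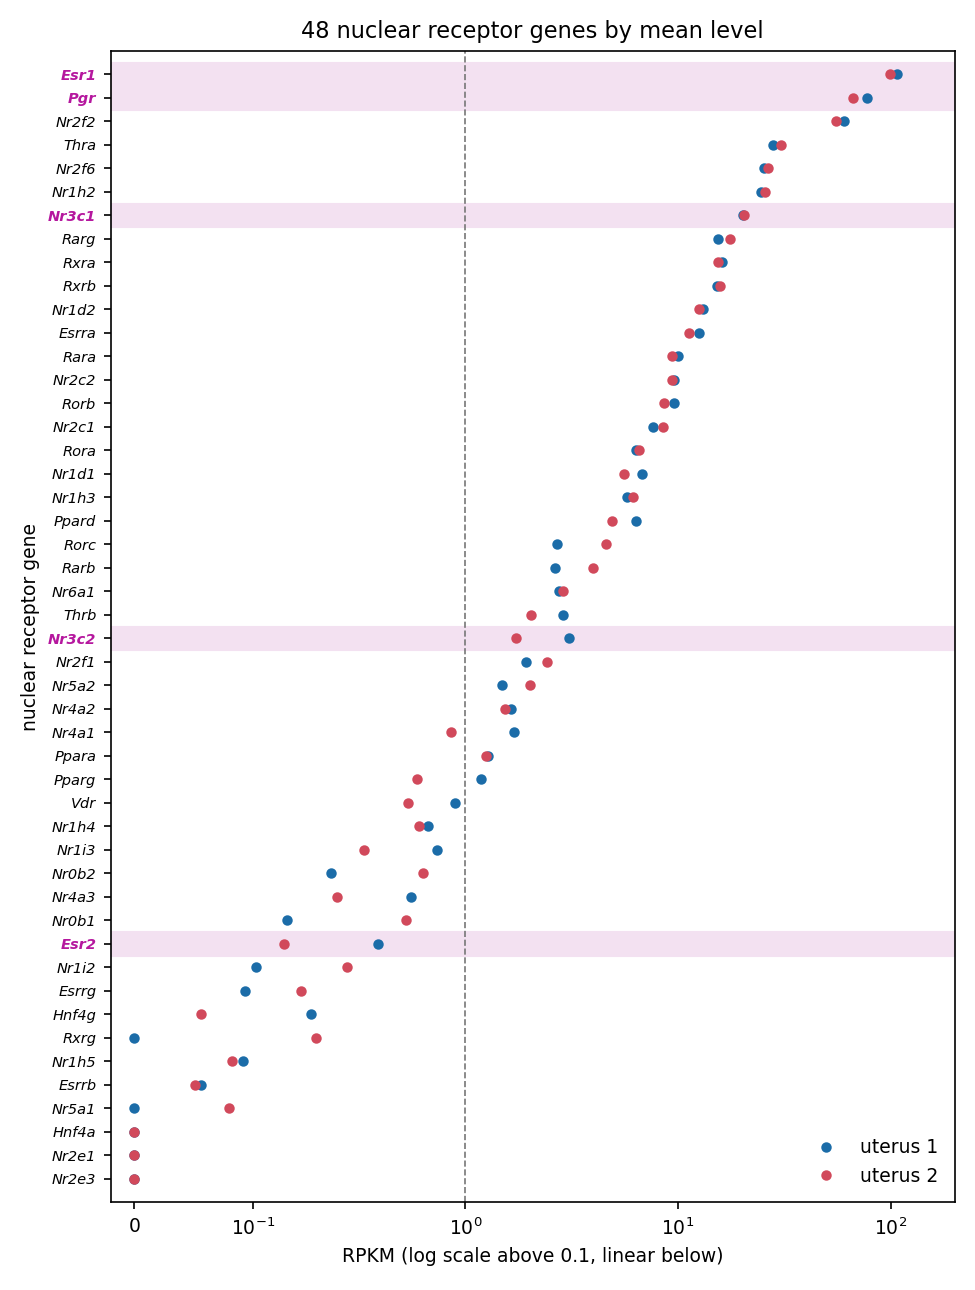
RPKM (log scale above 0.1, linear below) of 48 nuclear receptor genes in uterus 1 (blue) and uterus 2 (red), ordered by mean, with the 5 steroid receptors shaded and a dashed line at 1 RPKM. Esr1 and Pgr are at the top, Nr3c1 is at place 7, Nr3c2 at 25 and Esr2 at 38.

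Between the 2 animals, 4 receptors had fewer RPKM in uterus 2 and Nr3c1 did not. The ratio of uterus 2 to uterus 1 was 0.856 for Pgr (exact 95% binomial interval 0.804 to 0.911), 0.928 for Esr1 (0.869 to 0.991) and 1.02 for Nr3c1 (0.899 to 1.15). It was 0.563 for Nr3c2 (0.344 to 0.907) and 0.360 for Esr2 (0.0343 to 2.20). The intervals of Pgr, Esr1 and Nr3c2 lay below 1. They cover counting error in these libraries alone, they are not adjusted for 5 comparisons, and 1 library per animal says nothing of a population of mice.

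The same ratios were set beside those of all genes. Of the 4 that averaged 1 RPKM or higher, 0 were 2-fold apart after adding 0.1 RPKM, against 2.60% of 13647 such genes (1.42% lower in uterus 2), so a count of 0 among 4 says nothing particular of them. Nr3c2 came nearest with a log2 ratio of -0.79, followed by Pgr at -0.22, Esr1 at -0.11 and Nr3c1 at 0.02. The median log2 ratio of all genes was 0.0007 and their SD was 0.44. Esr2, below that filter, had a log2 ratio of -1.02, and 8.12% of all genes were 2-fold apart without a filter (3.97% lower in uterus 2).

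**Figure D5:**
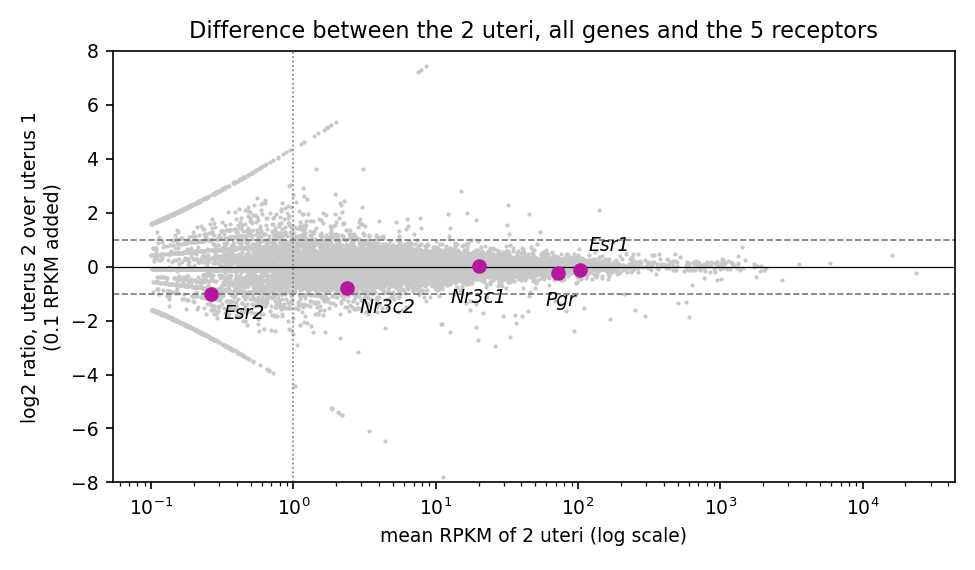
Log2 ratio of uterus 2 over uterus 1, with 0.1 RPKM added, against mean RPKM (log scale) for all genes averaging 0.1 RPKM or higher (grey) and the 5 receptors (purple), with dashed lines at 2-fold and a dotted line at 1 RPKM. Nr3c1, Pgr and Esr1 lie near 0, Nr3c2 at -0.79, and Esr2 at -1.02 among genes of few reads.

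Genes that respond to each hormone were read as lists, each gene by its level on this day of pregnancy. The lists were chosen with earlier results of these data known. Full detection and high medians can follow from that choice. Shares and medians of all genes are given for scale and test nothing about these lists. All 16 progesterone response genes reached 1 RPKM in both uteri, against 58.4% of all genes, with a median of 39.3 ± 0.447 RPKM. The highest was Hoxa10 at 114 ± 2.40 RPKM, a homeobox factor of the receptive stroma, and the lowest was Calca, which encodes calcitonin, at 2.98 ± 0.250 RPKM. The endocytic receptor gene Lrp2 lay at 87.7 and 104.6 RPKM and Gata2, which regulates Pgr itself, at 38.8 ± 0.491 RPKM. The hedgehog target genes Gli1 and Ptch1 lay at 41.5 ± 1.95 and 40.2 ± 4.71 RPKM.

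All 13 oestrogen response genes also reached 1 RPKM in both uteri (58.4% of all genes), but their median was 5.54 ± 0.0481 RPKM. Igf1, the growth factor through which oestrogen drives epithelial growth, was highest at 104 ± 5.43 RPKM, and Wnt4 was lowest at 1.67 ± 0.242 RPKM. Greb1, a close target of Esr1, lay at 4.04 ± 1.17 RPKM and Ccnd1 at 38.4 ± 3.85 RPKM. The median of this list stood above the 3.23 RPKM of all genes and below that of the progesterone list. The choice of genes can set this order.

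The 15 glucocorticoid response genes all reached 1 RPKM in both uteri (58.4% of all genes), with a median of 25.0 ± 2.94 RPKM. The metallothionein genes Mt1 and Mt2 led at 239 ± 41.7 and 158 ± 6.55 RPKM. Tsc22d3, which encodes the glucocorticoid-induced leucine zipper GILZ, lay at 54.8 ± 2.98 RPKM, Klf9 at 44.2 ± 1.87 RPKM and Zbtb16 at 24.9 ± 3.06 RPKM. The co-chaperone gene Fkbp5 lay at 19.1 ± 0.861 RPKM and Pdk4 was lowest at 1.33 ± 0.149 RPKM. Several of these genes answer to progesterone or metals as well, and the list does not separate the hormones.

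The enzymes that set access to the corticosteroid receptors were far apart. Hsd11b2, which inactivates corticosterone and so shields Nr3c2 from it, had levels of 117 RPKM (829 reads, uterus 1) and 78.9 RPKM (621 reads, uterus 2). Hsd11b1, which makes active corticosterone, lay at 1.26 and 1.14 RPKM, and H6pd, which supplies its cofactor, at 29.2 and 28.1 RPKM. Hsd11b2 was above Hsd11b1 in both uteri, and like Nr3c2 it was lower in uterus 2.

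Among genes that aldosterone regulates in the kidney, the sodium pump subunit gene Atp1b1 lay at 73.2 ± 3.23 RPKM and the kinase gene Sgk1 at 16.0 ± 0.335 RPKM. The epithelial sodium channel genes Scnn1a and Scnn1b lay at 1.17 ± 0.136 and 2.75 ± 0.903 RPKM, and Scnn1g was listed at 0 in both uteri. Of the 10 genes in this list 9 reached 1 RPKM in both uteri, against 58.4% of all genes.

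Receptors of another kind bind steroids at membranes. Pgrmc1, a haem-binding membrane protein, lay at 94.8 ± 3.38 RPKM and Pgrmc2 at 23.8 ± 0.513 RPKM. The membrane progestin receptor genes Paqr5, Paqr6, Paqr7 and Paqr8 had means between 0.750 and 5.03 RPKM. Gper1, which encodes the G protein-coupled oestrogen receptor and is listed as Gpr30, lay at 3.01 and 3.18 RPKM. Pgrmc1 was thus above Pgr in both uteri, while Gper1 was below Esr1 and above Esr2.

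Chaperones that hold unliganded receptors and coregulators that bind liganded ones were all present at 13.9 RPKM or more. Fkbp4, the co-chaperone on which uterine Pgr depends, lay at 119 ± 14.8 RPKM, and Hsp90ab1 at 642 ± 53.0 RPKM. The coactivator genes Ncoa1 (13.6 and 15.3 RPKM), Ncoa2 (16.1 and 13.99 RPKM) and Ncoa3 (13.6 and 14.4 RPKM) lay close together, and their ranges over the uteri overlap. No gene of these lists that averaged 1 RPKM or higher was 2-fold apart between the uteri, against 2.60% of all such genes, a share at which lists of this size hold few or none.

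The 250 bases upstream of each deposited start were read from NCBIM37. CpG dinucleotides were counted because genes with more of them were generally higher in these uteri. The median level was 0.858 RPKM over 4057 coding genes with 3 to 7 CpG, 7.72 RPKM over 3932 with 8 to 14, and 11.5 RPKM over 7990 with 15 or more. Pgr and Esr2 are shown because they stand at opposite ends of the family in reads and, at these starts, go against that order, and because no annotated exon overlaps their windows. Capitals mark CpG. The Pgr window is chr9:8899583-8899832, plus strand, and the Esr2 window is chr12:77278247-77278496, minus strand.
Pgr: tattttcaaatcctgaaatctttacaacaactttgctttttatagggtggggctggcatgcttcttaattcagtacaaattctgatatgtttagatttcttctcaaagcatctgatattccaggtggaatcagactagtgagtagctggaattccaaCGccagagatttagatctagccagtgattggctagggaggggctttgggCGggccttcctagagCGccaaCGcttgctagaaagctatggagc
Esr2: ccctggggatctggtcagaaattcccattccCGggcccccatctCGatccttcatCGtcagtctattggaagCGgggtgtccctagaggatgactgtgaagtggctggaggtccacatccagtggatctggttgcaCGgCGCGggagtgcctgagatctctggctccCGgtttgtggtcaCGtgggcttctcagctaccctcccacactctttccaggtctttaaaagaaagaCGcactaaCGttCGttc

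Pgr, with the most reads of the family, had 4 CpG and 43.6% GC in this window. Esr2, with the fewest reads, had 12 CpG and 56.4% GC, close to the medians of 11 CpG and 56.4% over 20377 coding genes. Esr1 had 5 CpG, Nr3c1 5 and Nr3c2 11. At the deposited starts the 3 highest receptors had fewer CpG than the 2 lowest, an order that did not hold at the outermost GENCODE starts. Of the coding genes with 3 to 7 CpG, 9.91% reached a mean of 20 RPKM. The share was 21.8% with 8 to 14 CpG, the class of Esr2 and Nr3c2, and 29.6% with 15 or more. This is a description of 5 genes.

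The counts depend on the start taken. The outermost GENCODE coding start gave 10 for Pgr, 4 for Esr1, 12 for Esr2, 17 for Nr3c1 and 30 for Nr3c2. The deposited starts of Nr3c1 and Nr3c2 lie 4056 and 3066 bases inside the outermost annotated start. The Pgr window shown lies 628 bases upstream of the nearest GENCODE coding start, and the 3 GENCODE starts of Pgr gave 10 to 14 CpG. Those of Esr2 gave 1 to 12. At the outermost starts Nr3c1 had more CpG than Esr2, and Pgr and Esr2 differed by 2. The RefSeq promoter table (GRCm38.p6), which matched 4 of the 5, gave 4 for Pgr, 7 for Esr1, 12 for Esr2 and 17 for Nr3c2. The contrast between the printed windows thus held with the RefSeq counts, narrowed at the outermost GENCODE starts and did not hold over all GENCODE starts, where the ranges overlap. Motifs were searched on both strands. The palindromic oestrogen response element (GGTCA, 3 bases of any kind, and its reverse complement) was in 0.0589% of the coding genes' windows and in none of the 5. The element shared by the other 3 receptors (AGAACA, 3 bases of any kind, and its reverse complement) was in 1 of the 20377 windows and in none of the 5. The single site GGTCA, which the full element contains, was in 33.1% of windows, among them those of Esr1, Esr2 and Nr3c2. The single site AGAACA was in 13.3% and in none of the 5. The letters TATAAA stood in 11.8% of windows, including Pgr and Nr3c1, and GGGCGG in 45.2%, including Pgr and Nr3c2. No match says only that these letters are not in this window.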

How the data were processed

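RNA was measured in 2 whole uteri of 1 group. Per the labels' protocols it was extracted with TRIzol and made into libraries with a TruSeq RNA kit. The authors deposited RPKM values, per the labels. TopHat, edgeR and build mm9 (NCBIM37) are named in the submitters' processing notes, with no role given. The counting program, annotation release, strand use and read length are not given in the sources used here. Both deposited tables hold the same values for all 22740 genes.

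The members and gene lists were chosen with earlier results of these data known. The named genes are the 5 receptors, the 3 nuclear receptors nearest in level to each, and, of each list, the extremes and members of known role. Gper1 was matched through its RefSeq synonym Gpr30, and Acod1 of the progesterone list through Irg1.

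Reads were recovered as follows. The most frequent ratio of values between the libraries gave the relative worth of 1 read, and all 16104 genes above 0 in both then had a ratio of whole numbers (relative tolerance 1e-09). Annotated exons trimmed or extended to the deposited ends gave candidate lengths, which set scaling totals of 3834174 and 4256101. Whole reads (tolerance 1e-04) followed for 12518 genes (77.7%), summing to 2954943 and 3304797, and exactly 1 length fitted each receptor. The method was tested on simulated data, but the outcome is not given here. Intervals and the 3-read limit reflect counting error alone: reads copied by PCR are not separate molecules. The design text describes the mice as independent and the RNA as poly-A selected.

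Deposited starts are counted from 0, and coordinates are printed counted from 1. With 1 group there is no test between groups. Log2 ratios between uteri use a pseudocount of 0.1 RPKM. Alternatives were other pseudocounts, filters, scales, gene sets, lengths and each uterus alone. Work was done in Python 3.11.15 with scipy 1.17.1. RefSeq promoters (GRCm38.p6) matched 4 of the 5 receptors and served only for an alternative count. Some results on these genes are not reported here.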

Additional observations from a re-analysis of the deposited data

How the results depend on the processing

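With 1 library per animal, differences between animals and between library preparations cannot be told apart, and depth limits Esr2 most, at 5 and 2 reads. Of 217 alternative values, 173 stayed within the spread between the uteri, the counting interval or 1.5 times of the count, 42 moved further and 2 reversed. Leaving out either uterus keeps a mean of 2 within 1 SD by construction, so it says nothing about stability. No paired analysis was possible because both libraries belong to 1 group. The length, read-unit and start-site alternatives were chosen after seeing the data.

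Both reversals concern Esr1 over Pgr, at -0.15 (log2) in recovered reads and -0.031 with the longest transcript length, where the change of length alone moves the value. The TPM scale changes the unit and gave 170.3 for Pgr, 244 for Esr1, 0.625 for Esr2, 48.0 for Nr3c1 and 5.67 for Nr3c2. It gave list medians of 93.0 (progesterone), 13.1 (oestrogen), 59.0 (glucocorticoid), 33.0 (mineralocorticoid and enzymes), 7.35 (membrane receptors), 64.0 (chaperones and coregulators), 0.310 (Esrra, Esrrb and Esrrg) and 5.80 (nuclear receptors). The longest length gave levels of 70.2 RPKM for Esr1 and 19.9 RPKM for Nr3c1. Ranks among coding genes alone were 14392 for Esr2 and 3691 for Nr3c1, fewer genes being ranked.

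Shares in reads were 45.8% for Pgr, 41.3% for Esr1 and 11.9% for Nr3c1. In reads the log2 ratio was 1.79 for Esr1 over Nr3c1, 5.72 for Pgr over Nr3c2, 9.30 for Pgr over Esr2 and 3.77 for Nr3c1 over Nr3c2. With the longest length it was 1.82 for Esr1 over Nr3c1, 5.50 for Pgr over Nr3c2 and 2.77 for Nr3c2 over Esr2. A pseudocount of 1 RPKM shrank ratios to low genes by construction: 4.97 for Esr1 over Nr3c2, 6.37 for Esr1 over Esr2, 4.45 for Pgr over Nr3c2, 5.85 for Pgr over Esr2, 4.08 for Nr3c1 over Esr2 and 1.40 for Nr3c2 over Esr2. A pseudocount of 0.1 RPKM gave 2.81 for the last pair. Genes at least 2-fold apart numbered 355, against 1846 without a filter, 48 at a mean of 10 RPKM, 153 with a pseudocount of 1 RPKM and 232 with NM_ identifiers alone.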
